A study of Mus musculus with 18 samples.

Results

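DNA double-strand break repair genes were followed in primary mouse fibroblasts that carried guide RNAs against Lmna. The 34 genes were taken from a list of break sensors and repair factors, 1 transcript per symbol (that of highest mean level), out of 24445 symbols in the expression table. They comprised 11 genes of sensing and signalling (Atm, Atr, Chek1, Chek2, Mre11a, Rad50, Nbn, Mdc1, Trp53bp1, Rnf8 and Rnf168), 11 of homologous recombination (Brca1, Brca2, Bard1, Palb2, Rad51b, Rad51c, Rad51d, Rad52, Rad54l, Xrcc2 and Xrcc3), 4 of resection and helicases (Rbbp8, Exo1, Blm and Wrn), 6 of classical end joining (Xrcc4, Xrcc5, Xrcc6, Prkdc, Lig4 and Nhej1) and 2 of alternative end joining (Polq and Parp1).

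The series concerns CRISPR/Cas9 treatment in a mouse model of progeria, a disease of early ageing, and the mutant Lmna allele of the model is written Pro in the sample names. Cells came from tail tips of 2-month-old mice of 3 genotypes, were used at passage 5, and are called here homozygous Cas9 cells (Pro/Pro;Cas9/+), wild-type Cas9 cells (+/+;Cas9/+) and heterozygous cells without Cas9 (Pro/+; +/+). Cells of each mouse received, by a lentivirus that also carries mCherry and in 4 µg/ml polybrene, either the mock guide gMock or a guide that targets Lmna, named gLmna-1 or gLmna-2, with over 80% of cells mCherry-positive and no sorting or selection. This gave 18 libraries from 6 mice, 2 mice (replicates 1 and 2) in each of 9 groups, so that the guides were compared within a mouse and the genotypes between mice. Cas9 and the Lmna genotype change together between heterozygous cells and the other cells, and their parts cannot be told apart. The labels do not state the promoter that drives Cas9, and do not say whether the name of 1 heterozygous mouse stands for 1 animal or a pool. Where nothing more is said, p-values of guide comparisons rest on 1 estimate of the spread within mice, taken over all 6 mice. They do not measure the spread between the 2 mice of the genotype compared. For genotypes under gMock the spread is that between mice in the 6 gMock libraries.

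A double-strand break is first bound by the complex of Mre11a, Rad50 and Nbn, and the kinases Atm and Atr pass the signal to the checkpoint kinases Chek1 and Chek2. The break is then either ligated directly, by Ku (Xrcc5 and Xrcc6), Prkdc, Xrcc4, Lig4 and Nhej1, or resected and copied from the sister chromatid by Brca1, Brca2, Palb2 and their partners, a route that cells use in the S and G2 phases. Cas9 makes such breaks at the site its guide matches, and most edits at a cut come from end joining.

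Values are FPKM, read counts scaled to transcript length and to library size, and so compare genes per length. The libraries held 22424409 to 42622059 reads, recovered from the steps of the values. All 8 fibroblast markers were present (Vim between 2614 and 5091 FPKM, Col1a1 between 1070 and 3162 FPKM), and those of keratinocytes, endothelium and skeletal muscle summed to at most 2.26 FPKM per library. Markers of macrophages and other immune cells were present as well, with sums of 448 to 1490 FPKM in homozygous Cas9 cells, 68.8 to 581 FPKM in heterozygous cells and 62.2 to 411 FPKM in wild-type Cas9 cells, while the T cell gene Cd3e was at 0 throughout. Markers of pigment and Schwann cells summed to between 8.39 and 37.7 FPKM. Lmna itself, the target, lay between 217.2 and 369.8 FPKM in homozygous Cas9 cells and between 195.7 and 381.4 FPKM in the other cells, and its level does not show whether a cut was made.

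All 34 genes were detected, over a wide span of levels. End-joining and sensing genes were in the main several-fold more abundant than recombination genes: the median of the members' mean FPKM was 5.56 for classical end joining, 5.27 for sensing, 2.08 for resection and helicases, and 0.989 for homologous recombination. In bulk RNA, fewer cells that express a gene and less RNA per cell cannot be told apart. Parp1, a break-binding enzyme that adds ADP-ribose chains, was the most abundant member (10.9 FPKM in the lowest library, 13.8 at the median, 17.1 in the highest). Polq, the polymerase of the same alternative route, was the least abundant, at 0.0781, 0.33 and 0.705 FPKM. The 2 genes of that small group therefore stood at the opposite ends of the list.

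The Ku subunits followed Parp1. Xrcc6 had a mean of 10.3 FPKM (range 9.36 to 12.3) and Xrcc5 a mean of 10.2 FPKM (range 9.15 to 11.6), so the partners, which work as a dimer, did not differ beyond their spread. Xrcc4, the scaffold of the ligase, had a mean of 7.29 FPKM. Its partner Lig4, the ligase of the route, had a mean of 3.64 FPKM, and Nhej1, which bridges the ends, one of 3.82 FPKM. Prkdc, the large kinase recruited by Ku, was the lowest of the 6, at a mean of 1.24 FPKM.

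Among the sensors, Nbn (mean 8.52 FPKM) and Rad50 (6.89 FPKM) were above their partner Mre11a (3.83 FPKM). The chromatin factors that mark or read a break were of middle level, with means of 8.11 FPKM for the ubiquitin ligase Rnf8, 7.41 FPKM for Trp53bp1, which favours end joining over resection, 5.27 FPKM for the ligase Rnf168 and 4.49 FPKM for the adaptor Mdc1. The kinases Atr (2.56 FPKM) and Atm (2.29 FPKM) were lower, and their ranges, 2.02 to 3.30 and 1.52 to 3.15 FPKM, overlapped. The checkpoint kinases differed from each other: Chek2 had a mean of 6.62 FPKM and Chek1, which acts downstream of Atr during replication, one of 0.957 FPKM, with no overlap between their 18 libraries.

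Of the 11 recombination genes, 6 had a mean below 1 FPKM. These were Brca1, a tumour suppressor (0.989 FPKM), Rad51b (0.935 FPKM), Rad51c (0.585 FPKM), the tumour suppressor Brca2 (0.515 FPKM), Bard1, the partner of Brca1 (0.420 FPKM), and Palb2, which links Brca1 to Brca2 (0.418 FPKM). Rad52, an annealing protein, was the most abundant of the route at 4.96 FPKM, followed by Rad51d (4.06 FPKM) and Xrcc3 (2.31 FPKM), the motor protein Rad54l (2.04 FPKM) and Xrcc2 (1.34 FPKM). The level of Rad51d depends on the transcript chosen: the 1 used, of 1709 bases, was the highest of 9. The others, which are longer, had means of 2.525 to 2.644 FPKM. Of the genes that start or steer resection, Rbbp8, the partner of the nuclease Mre11a, had a mean of 4.30 FPKM, the helicases Wrn and Blm 3.00 and 1.15 FPKM, and the nuclease Exo1 0.504 FPKM. Polq was read from as few as 17 and at most 176 reads per library, against 1065 to 2496 for Parp1, so single values of the rare members carry a larger counting error.

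**Figure D1:**
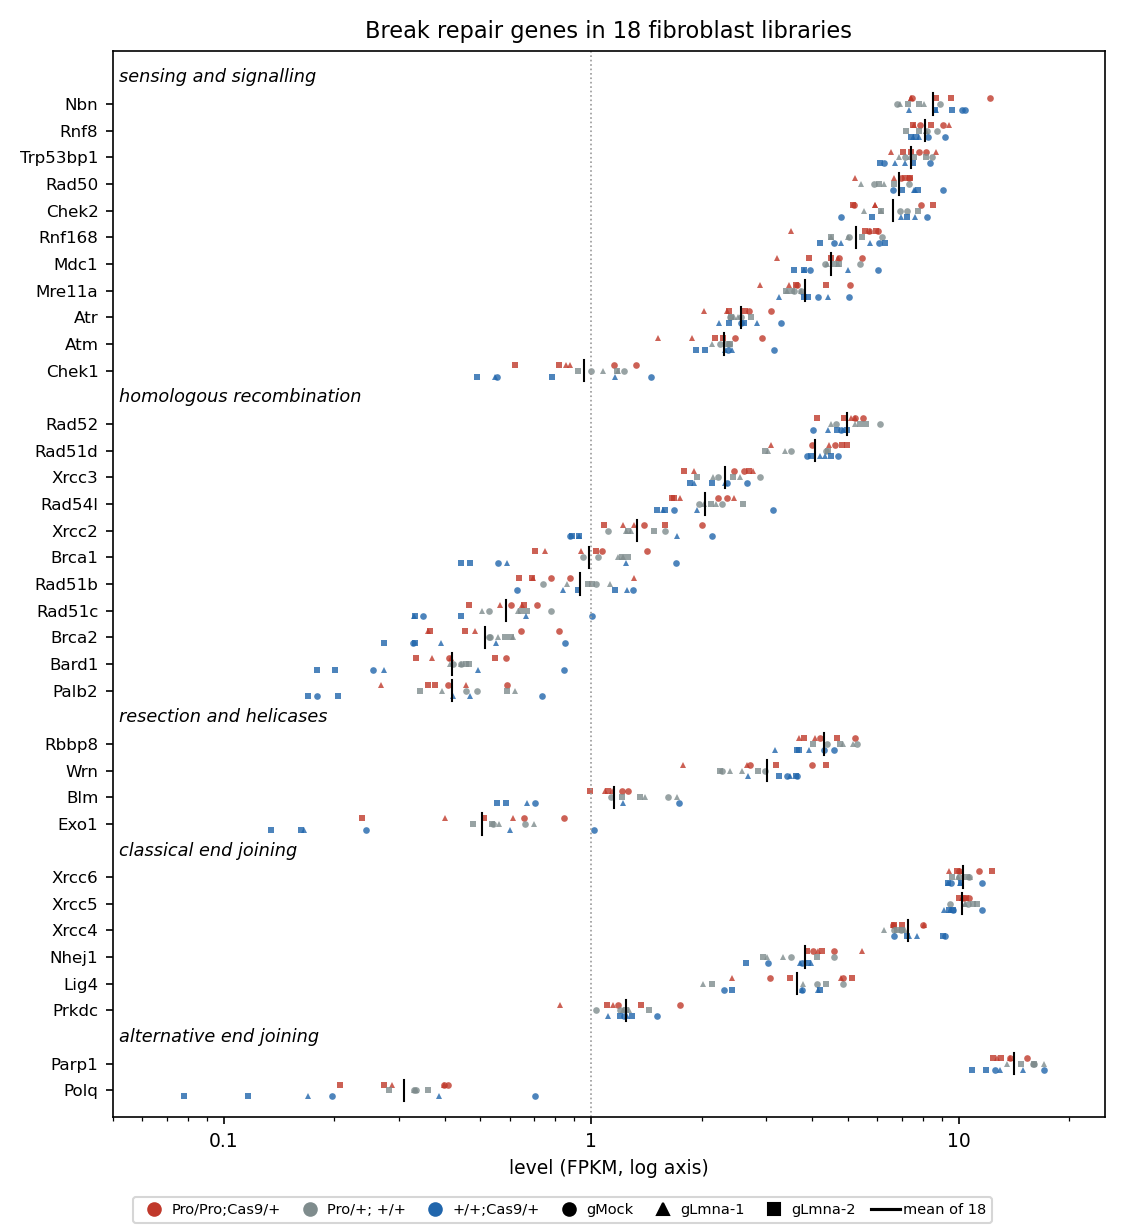
Level of each of the 34 members in every library (FPKM, log axis), grouped by role and ordered by mean. Colours stand for the genotypes, symbols for the guides, the black bar for the mean of 18 libraries and the dotted line for 1 FPKM. Recombination genes reach from 4.96 FPKM (Rad52) down to 0.418 FPKM (Palb2), and the wild-type Cas9 libraries spread widest for the rare genes.

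Some of these levels share bases with other genes, and the strand of the reads is not stated, so that reads from a gene and its antisense partner cannot be told apart. The last part of Rad54l, at 16.2 FPKM, overlaps Lrrc41 on the opposite strand. Without this part the mean of Rad54l was 0.89 FPKM in place of 2.04, which would place it with Brca1 and Rad51b. Parts of Trp53bp1 overlap Tubgcp4, several parts of Rnf8 are shared with the gene model Gm28043 on the same strand, and smaller overlaps touch Atr, Xrcc3 and Parp1. For these 5 genes the mean without the shared parts stayed close, at 7.87 FPKM for Trp53bp1, 7.67 FPKM for Rnf8, 2.62 FPKM for Atr, 2.41 FPKM for Xrcc3 and 14.1 FPKM for Parp1. This check was chosen after the values were seen.

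Whether the Lmna guides changed the repair genes in cells with the mutant allele and Cas9 was asked first by setting both guides against gMock within the 2 homozygous mice. No member passed the test: 0 of the 28 members at 1 FPKM or more in at least 2 libraries were called at an adjusted p of 0.05 (limma with Benjamini-Hochberg adjustment over 12599 genes). Of all tested genes 0.0794% were called, 10 of them and all higher. The 6 members not tested, for values under 1 FPKM in all but at most 1 library, were Brca2, Bard1, Palb2, Rad51c, Polq and Exo1. This filter is on FPKM and not on reads: Brca2, a long transcript, had 70 to 301 reads per library, and the tested Rad51b 26 to 78. At an unadjusted p under 0.05 there was 1 member (Atm), and 8.37% of all tested genes. The fitted log2 differences lay between −0.32 (Chek1) and 0.03 (Nhej1), with 27 of 28 below 0 and a median of −0.14, beside a median of −0.01 and 48.1% above 0 over all tested genes. The median standard error of a member was 0.12, so a change of that size in a single gene was not detectable.

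By role, all 11 sensing genes had a value below 0 (median −0.19), as did the 7 recombination genes tested (median −0.13) and the 3 tested genes of resection and helicases (median −0.15). For classical end joining 5 of 6 were below 0, with a median of −0.03. These values are on the scale of the test, which understates the change of low genes. The median level was 0.989 FPKM for recombination, beside 5.27 FPKM for sensing and 5.56 FPKM for classical end joining. The untested Brca2, Bard1, Palb2, Rad51c and Exo1 are also outside these medians. The medians therefore do not rank the roles by size of change. In single mice, sensing genes below their own gMock library numbered 10 of 11 and 9 of 11 with gLmna-1 and 9 of 11 and 10 of 11 with gLmna-2. End-joining genes below gMock numbered 4 and 5 of 6 with gLmna-1, and 4 and 3 of 6 with gLmna-2. The 15 proliferation markers, genes of mitosis such as Mki67 and Top2a, had values below 0 in the same comparison in 15 of 15 cases with a median of −0.34, and none of them passed. Their part in the members' values was not tested.

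Atm (chr9:53437122-53536671, minus strand, of mm10), the kinase that answers a break first, had the smallest p of all members. In homozygous Cas9 cells its FPKM was 2.46 with gMock, 1.52 with gLmna-1 and 2.17 with gLmna-2 in replicate 1, and in the same order 2.91, 1.88 and 2.29 in replicate 2. Both gMock values were above all 4 guide values, and gLmna-1 gave the lowest value in each mouse. The log2 difference of both guides from gMock was −0.32 (SE 0.10), with an adjusted p of 0.382 by limma. In wild-type Cas9 cells the values were 2.36, 2.41 and 1.93 FPKM in replicate 1 and 3.15, 2.32 and 2.04 FPKM in replicate 2. There the difference was −0.24 (SE 0.10, limma adjusted p = 0.634), and −0.09 without the gMock library of replicate 2, which held the highest of the 18 values. In heterozygous cells, which lack Cas9, Atm stayed between 2.13 and 2.39 FPKM in all 6 libraries, and the difference was −0.001 (SE 0.10).

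The kinase Atr and the nuclease Mre11a came next among the sensors. Atr measured 2.69, 2.02 and 2.38 FPKM in replicate 1 and 3.09, 2.35 and 2.62 FPKM in replicate 2 in the order gMock, gLmna-1, gLmna-2, a difference of −0.22 (SE 0.11). Mre11a measured 3.63, 2.89 and 3.61 FPKM and then 5.06, 3.46 and 4.37 FPKM, again −0.22 (SE 0.12). In both genes gLmna-1 gave the lowest value in each mouse. The gMock values of Atr were above all 4 guide values, and those of Mre11a overlapped them. Neither passed, with limma adjusted p-values of 0.656 and 0.688. Chek1, at −0.32, and Mdc1, at −0.27, had larger estimates and larger standard errors, 0.20 and 0.15.

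Among end-joining genes, Prkdc had the smallest p. It measured 1.18, 0.821 and 1.11 FPKM in replicate 1 and 1.74, 1.15 and 1.37 FPKM in replicate 2 of the homozygous Cas9 cells, a log2 difference of −0.22 (SE 0.10, limma adjusted p = 0.599). As for Atm, gLmna-1 gave the lower value of the 2 guides in both mice. The Ku genes differed little, with −0.04 (SE 0.09) for Xrcc6 and −0.03 (SE 0.08) for Xrcc5, and Xrcc4 likewise with −0.03 (SE 0.12). Among recombination genes the smallest p-values belonged to Brca1 at −0.27 (SE 0.21), Rad54l at −0.19 (SE 0.16) and Rad52 at −0.13 (SE 0.12). Parp1 stood at −0.15 (SE 0.12), Rbbp8 at −0.17 (SE 0.11) and Blm at −0.10 (SE 0.18), and none of these passed.

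Behind these estimates lie values that mostly overlapped between gMock and the guides in homozygous Cas9 cells. Brca1 had 1.07 and 1.42 FPKM with gMock and 0.703 to 1.03 FPKM with the guides, with no overlap. Rad54l measured 2.21, 2.45 and 1.69 FPKM and then 2.34, 1.75 and 1.66 FPKM, and Rad52 measured 5.22, 5.10 and 4.88 FPKM and then 5.51, 5.23 and 4.11 FPKM. The guides thus gave Rad54l a higher value than gMock in 1 of 4 libraries and Rad52 in none, each against its own mouse. For Rad54l this depended on the part shared with Lrrc41. Without that part it measured 1.099, 0.976 and 0.481 FPKM and then 1.005, 0.729 and 0.699 FPKM, with both gMock values above all guide values. The estimate and r given for Rad54l use all its parts. Rbbp8 measured 4.19, 4.08 and 3.80 FPKM and then 5.22, 3.67 and 4.68 FPKM, and Blm 1.26, 1.09 and 0.99 FPKM and then 1.21, 1.14 and 1.11 FPKM. Both were below their own gMock in 4 of 4 libraries, and the gMock values of Blm were above all guide values. Xrcc6 measured 10.1, 9.45 and 9.90 FPKM and then 11.4, 10.1 and 12.3 FPKM, Xrcc5 10.7, 10.2 and 10.0 FPKM and then 10.3, 10.3 and 10.5 FPKM, and Parp1 15.4, 12.8 and 13.1 FPKM and then 13.8, 13.8 and 12.4 FPKM. For the Ku genes the highest value of replicate 2 came from gLmna-2.

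**Figure D2:**
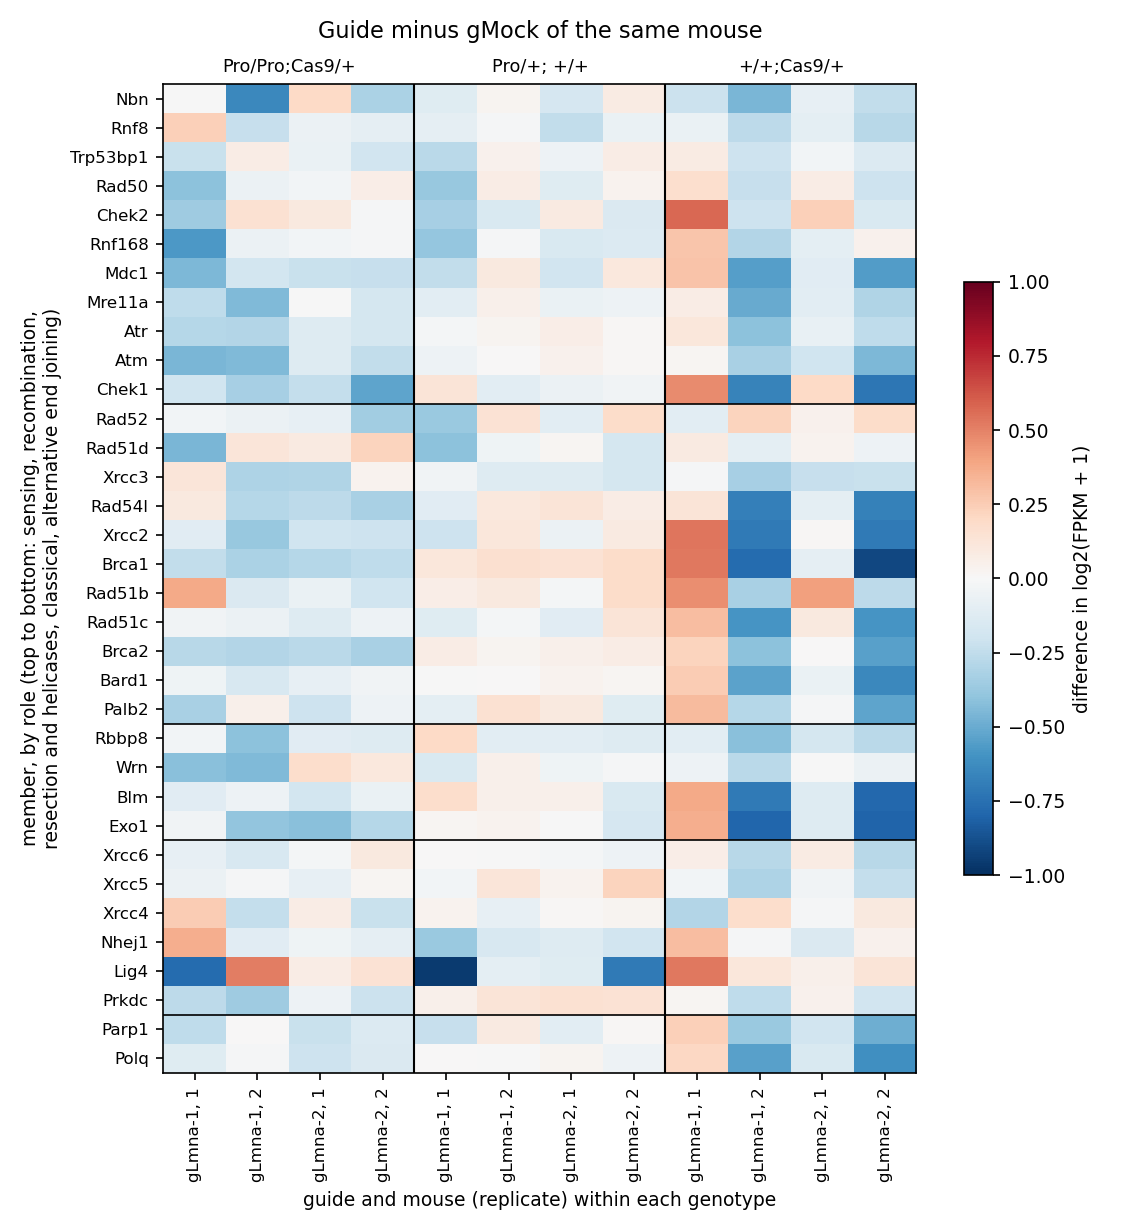
Difference in log2(FPKM + 1) between each guide library and the gMock library of the same mouse, for the 34 members (rows, by role) and 12 guide libraries (columns, guide and mouse within each genotype). Blue is lower and red higher than gMock. Most sensing genes are blue in homozygous Cas9 cells, and the wild-type Cas9 mice differ from each other, with recombination genes red in replicate 1 and blue in replicate 2 under gLmna-1.

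With the guides taken singly in homozygous Cas9 cells, again 0 of 28 members passed for gLmna-1 against gMock, where 0.976% of tested genes were called, and 0 of 28 for gLmna-2 against gMock, where 0.357% were called. These comparisons share the gMock libraries with the one above. For gLmna-1, 24 of 28 values were below 0 (median −0.15, beside −0.03 over all tested genes), and 5 members had an unadjusted p under 0.05: Atm at −0.45 (SE 0.11), Wrn at −0.43 (SE 0.10), Mre11a at −0.35 (SE 0.13), Prkdc at −0.31 (SE 0.11) and Atr at −0.29 (SE 0.13). The same held for 18% of all tested genes. The limma adjusted p was 0.0881 for Atm and 0.0783 for Wrn. With limma voom on the recovered reads both were called, Atm at −0.65 (adjusted p = 0.0431) and Wrn at −0.58 (adjusted p = 0.0492). Over all tested genes voom also called more in this comparison than the main fit, as counted in the closing section. For gLmna-2, 22 of 28 values were below 0 (median −0.12, beside 0.02), and no member had an unadjusted p under 0.05, beside 10.1% of tested genes, and limma voom called 0.

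The guides differed from each other in 1 member, the helicase Wrn, whose loss in people causes Werner syndrome, another disorder of early ageing. Wrn lies at chr8:33234373-33385527, minus strand, of mm10. It measured 2.71, 1.78 and 3.2 FPKM in the order gMock, gLmna-1, gLmna-2 in replicate 1 and 3.98, 2.66 and 4.35 FPKM in replicate 2 of the homozygous Cas9 cells. In each mouse gLmna-1 gave the lowest and gLmna-2 the highest value, and the 2 gLmna-1 values lay below both gLmna-2 values. Wrn was higher with gLmna-2 than with gLmna-1 by 0.57 on the log2 scale (SE 0.10, limma adjusted p = 0.0117). This was 1 of 28 members, and 9.95% of all tested genes were called in that comparison, so the members' share was not above the background. Of those 1253 genes 872 were higher with gLmna-2, and of 1107 called after rescaling each library by its median ratio 621 were, Wrn among them. The call was lost when either gLmna-2 library was left out (adjusted p = 0.102 without replicate 1 and 0.0728 without replicate 2), without the replicate block (0.186) and with homozygous Cas9 libraries alone in the fit (0.208). The difference itself lay between 0.54 and 0.60 when single libraries were left out.

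In the other cells Wrn was not called between the guides. Wild-type Cas9 cells measured 3.63, 3.47 and 3.61 FPKM in replicate 1 and 3.42, 2.67 and 3.24 FPKM in replicate 2, and heterozygous cells 2.98, 2.58 and 2.86 FPKM in replicate 1 and 2.28, 2.39 and 2.25 FPKM in replicate 2. The differences between guides were 0.13 (SE 0.10) and 0.02 (SE 0.10). Over all members, 0 of 28 passed for gLmna-2 against gLmna-1 in wild-type Cas9 cells (0% of all tested genes) and 0 of 28 in heterozygous cells (0% of all tested genes). At an unadjusted p under 0.05 these held 8.01% and 2.11% of all tested genes, and no member, and limma voom called 0 in both. Whether the guide difference in Wrn itself differed between genotypes was not tested.

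In wild-type Cas9 cells, where the guides meet a normal Lmna gene, 0 of 28 members passed for both guides against gMock, and 0.849% of tested genes were called, 104 lower and 3 higher. Of the members, 23 had a value below 0, with a median of −0.15 beside −0.02 over all tested genes, and 1 member, Atm, had an unadjusted p under 0.05, beside 7.61% of tested genes. With gLmna-1 the 2 mice differed in direction: 9 of 11 recombination genes were above their own gMock library in replicate 1 (median 0.25) and 10 of 11 below it in replicate 2 (median −0.41). The proliferation markers were above gMock in 15 of 15 cases in replicate 1 (median 1.15) and below it in 15 of 15 in replicate 2 (median −1.45). The medians of the end-joining genes were 0.04 and −0.13. With gLmna-2, 22 and 29 of 34 members and 15 of 15 proliferation markers in each mouse were below gMock, the markers at medians of −0.25 and −1.61. The recombination genes still differed between the mice. From gMock to gLmna-2 their mean log2(FPKM + 1) went from 1.058 to 1.069 in replicate 1 and from 1.51 to 1.061 in replicate 2.

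In heterozygous cells, which received the same guides but have no Cas9, 0 of 28 members passed for both guides against gMock, as did 0% of all tested genes. At an unadjusted p under 0.05 there was no member, beside 3.15% of tested genes. The median of the members was −0.04, equal to that of all genes. Recombination genes below gMock numbered 8 and 3 of 11 with gLmna-1 and 5 and 3 of 11 with gLmna-2. Sensing genes below gMock numbered 10 of 11 in replicate 1 (median −0.12) and 4 of 11 in replicate 2 with gLmna-1, so 1 mouse without Cas9 had a count like those of the homozygous Cas9 cells.

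The difference of the guide effects between genotypes, tested directly, was called for no member. For homozygous Cas9 against heterozygous cells 0 of 28 passed (0% of all tested genes, 4.15% at an unadjusted p under 0.05). The members' median was −0.10 beside 0.04 over all genes, and Prkdc (−0.34, SE 0.14) and Atm (−0.32, SE 0.14) had an unadjusted p under 0.05, both with an adjusted p of 1.00 by limma. For wild-type Cas9 against heterozygous cells 0 of 28 passed, and 0.294% of tested genes were called, with no member and 3.84% of genes at an unadjusted p under 0.05. For homozygous against wild-type Cas9 cells 0 of 28 passed, and 0.0476% were called, with no member and 3.03% of genes at an unadjusted p under 0.05, and a members' median of −0.02 beside 0.02. These comparisons share libraries with each other and with those above. Limma voom on the recovered reads called 0 of 28 members in each of them, as in both guides against gMock in the 3 genotypes.

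Under gMock, the repair genes of homozygous and wild-type Cas9 cells gave no call, with 0 of 28 called where 0.397% of all tested genes were (limma on the 6 gMock libraries). At an unadjusted p under 0.05 there was no member, beside 10.4% of tested genes, and limma voom also called 0. The members' median was 0.02 and their range −0.11 to 0.30, with a median standard error of 0.18 that leaves moderate differences undetectable. Lig4 had the largest value, 0.30 (SE 0.26), and Nhej1 the smallest p, at 0.28 (SE 0.18, adjusted p = 0.778). Nhej1 measured 4.02 and 4.57 FPKM in the homozygous and 3.03 and 3.74 FPKM in the wild-type gMock libraries, which do not overlap. The immune markers, higher in homozygous Cas9 cells as given above, move with this comparison, and their part in it was not tested.

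**Figure D3:**
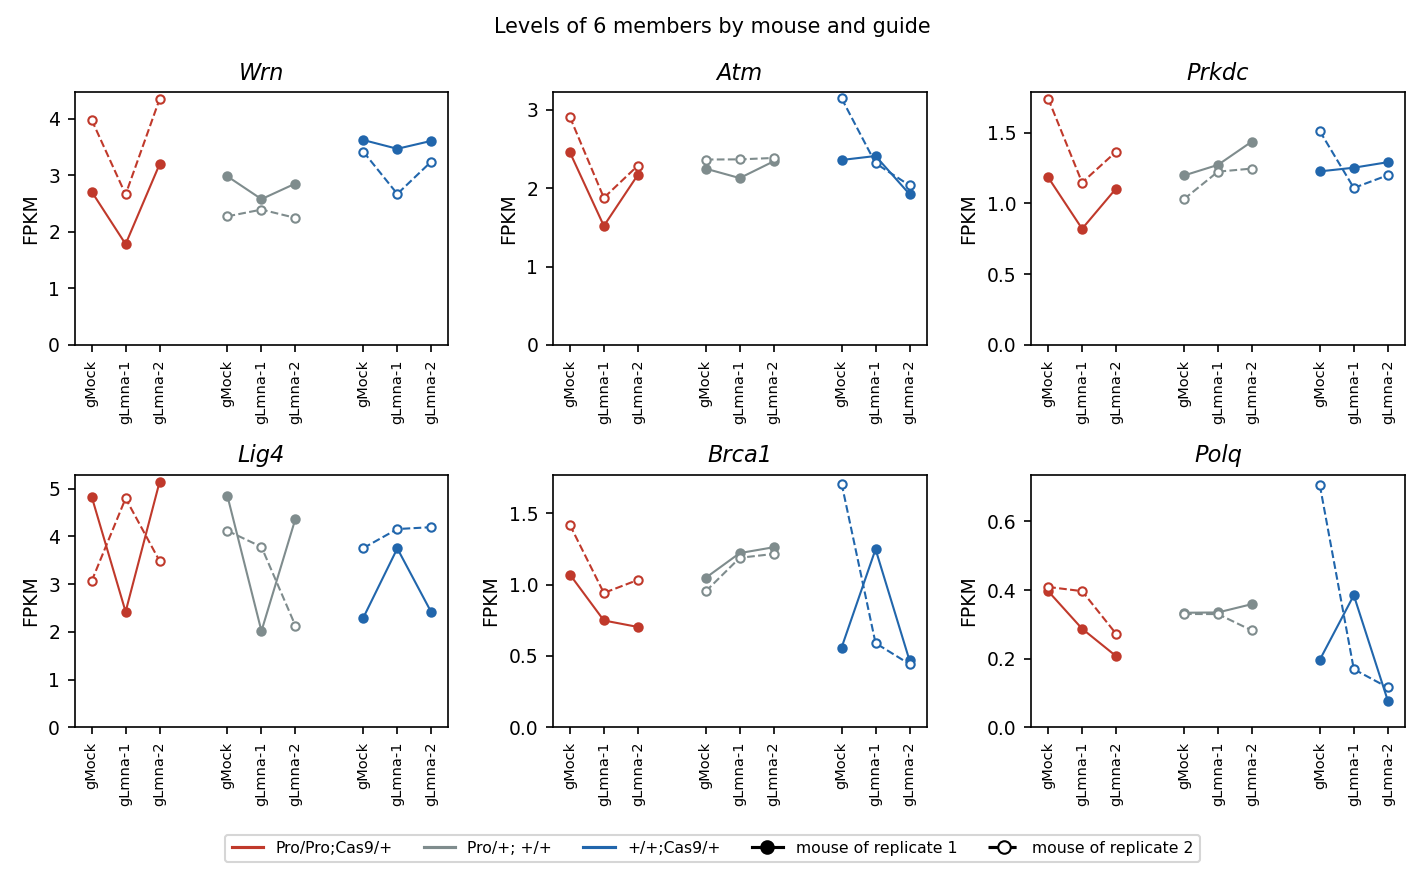
FPKM of 6 members by guide, with a line for each mouse (filled and solid for replicate 1, open and dashed for replicate 2) and a colour for each genotype. Wrn, Atm and Prkdc have their lowest value of the homozygous Cas9 cells under gLmna-1 in both mice, Lig4 moves in opposite directions in the 2 homozygous mice, and Brca1 and Polq peak in the gMock library of wild-type replicate 2.

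Several members, of more than 1 role and many of them rare, had both their highest and lowest value in wild-type Cas9 cells. This held also for the abundant Parp1 (10.9 to 17.1 FPKM) and Xrcc5 (9.15 to 11.6 FPKM). Highest over lowest library was a ratio of 9.03 for Polq, 7.59 for Exo1, and, of recombination, 4.69 for Bard1, 4.32 for Palb2 and 3.86 for Brca1. It was 2.08 for Rad51b and 1.27 for Xrcc5, the lowest of the members. Brca1 (chr11:101488764-101551955, minus strand, of mm10) measured 0.559, 1.25 and 0.468 FPKM in the order gMock, gLmna-1, gLmna-2 in replicate 1 and 1.71, 0.59 and 0.443 FPKM in replicate 2 of these cells. In homozygous Cas9 cells it measured 1.07, 0.748 and 0.703 FPKM and then 1.42, 0.941 and 1.03 FPKM, and in heterozygous cells 1.05, 1.22 and 1.26 FPKM and then 0.952, 1.19 and 1.21 FPKM. The highest and the lowest of the 18 values thus both came from replicate 2 of the wild-type Cas9 cells. Polq, rarer still, repeated this order in the wild-type mice, with 0.197, 0.385 and 0.0781 FPKM and then 0.705, 0.169 and 0.116 FPKM. Rad51b, another rare member, had its highest value elsewhere (1.31 FPKM in gLmna-1 of homozygous replicate 1). The gMock library of wild-type replicate 2 held the highest value of Exo1 (1.02 FPKM, lowest 0.135), Bard1 (0.845, lowest 0.18), Palb2 (0.734, lowest 0.17), Rad51c (1.01, lowest 0.329), Brca2 (0.85, lowest 0.273), Blm (1.73, lowest 0.555) and Chek1 (1.46, lowest 0.49). More abundant members also peaked in that library, among them Parp1, Xrcc5, Rad50 (9.08 FPKM), Mdc1 (6.05), Atr (3.30) and Atm (3.15). Others did not, such as Nbn, highest at 12.15 FPKM in gMock of homozygous replicate 2.

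That library also had the highest mean of the proliferation markers, 3.31 on the log2(FPKM + 1) scale, against 1.26 in the lowest library, gLmna-2 of wild-type replicate 1. With the mean of each mouse removed, Pearson's r of a member with the mean of these markers over the 18 libraries was 0.971 for Polq, 0.956 for Blm, 0.931 for Brca1, 0.921 for Exo1 and 0.909 for Bard1. It was 0.128 for Lig4, 0.04 for Rad51d, −0.02 for Wrn, −0.28 for Rad52 and −0.53 for Xrcc4. The median was 0.82 for homologous recombination, 0.487 for sensing and 0.358 for classical end joining, and 0.03 over all tested genes. An r above 0.8 was reached by 13 of the 34 members (38.2%), 7 of 11 in recombination and 0 of 6 in classical end joining. It was reached as well by 2 of 2 in alternative end joining, 2 of 4 in resection and helicases, and 2 of 11 in sensing. Of the 28 members that passed the filter on low values it was reached by 7 (25%), 3 of 7 in recombination, beside 2.32% of the 12599 genes that passed it. These points are not independent, since 3 libraries share a mouse, and r is a description.

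**Figure D4:**
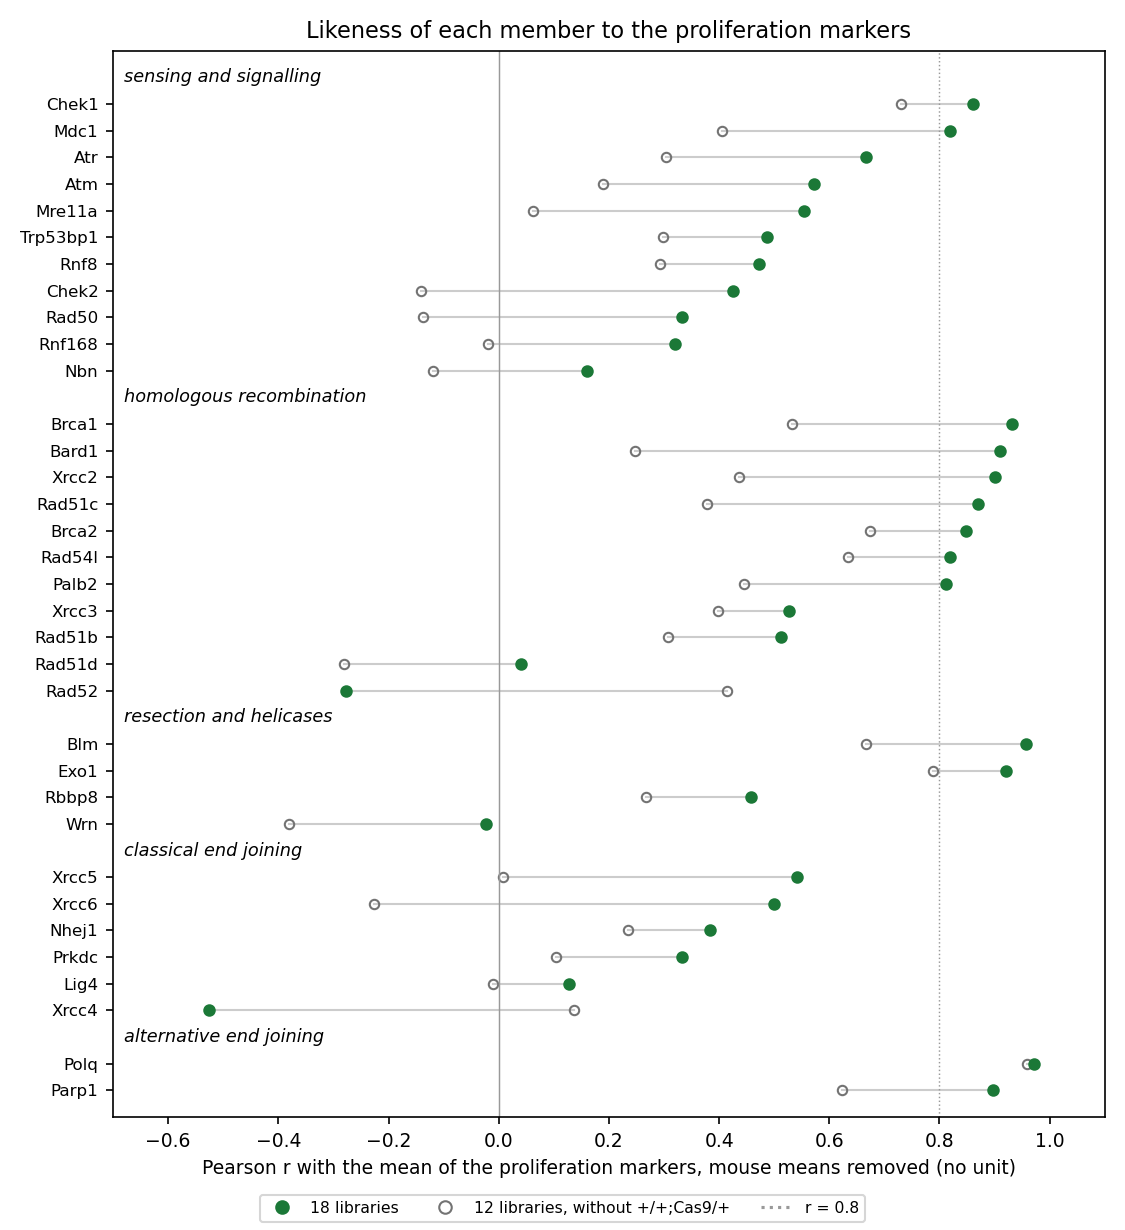
Pearson's r of each member with the mean of 15 proliferation markers, mouse means removed, by role. Filled points use 18 libraries and open points the 12 libraries without the wild-type Cas9 cells, and the dotted line marks 0.8. Filled points of 7 recombination genes and of no classical end-joining gene lie beyond the line, and without the wild-type Cas9 cells 1 member, Polq, does.

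The count of members with an r above 0.8 depended on the wild-type Cas9 libraries. Without the gMock library of replicate 2 an r above 0.8 was reached by 6 of 34 members (2 in recombination), 3 of the 28 tested, and 1.42% of tested genes. Without all 6 wild-type Cas9 libraries it was reached by 1 member, Polq (r = 0.96), by 0 of the 28 tested and by 1.01% of tested genes. The medians were then 0.414 for recombination and 0.06 for classical end joining, beside −0.05 over all tested genes. Without the 2 libraries whose marker mean lay farthest from the median, an r above 0.8 was reached by 11 members, 6 of the 28 tested, and 2.48% of tested genes. These were gMock (1.54) and gLmna-2 (1.26) of wild-type replicate 1, both at the low end. The gMock library of replicate 2, with the highest marker mean, stayed in. Removing the mouse mean sets the 1 library left of wild-type replicate 1 to 0. The checkpoint kinase Chek1 (0.73), the nuclease Exo1 (0.788), Brca2 (0.674), Blm (0.667), Rad54l (0.635) and Parp1 (0.622) held the next values in the 12 remaining libraries. These subsets were chosen after the values were seen.

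Beside this, the mean of the 6 classical end-joining genes on the log2(FPKM + 1) scale stayed between 2.46 and 2.71 over the 18 libraries, and that of the 11 recombination genes moved between 1.06 and 1.51. The difference of the 2 means, end joining minus recombination, was smallest in the gMock library of wild-type replicate 2 (1.17), the library with the highest proliferation markers. It was largest in gLmna-2 of wild-type replicate 2 (1.55), another treatment of the same mouse. In homozygous Cas9 cells it was 1.36, 1.35 and 1.51 in replicate 1 and 1.33, 1.44 and 1.43 in replicate 2 in the order gMock, gLmna-1, gLmna-2. The gMock and guide values of these cells overlapped. End joining minus sensing in the same cells was 0.13, 0.31 and 0.17 in replicate 1 and 0.06, 0.22 and 0.18 in replicate 2. Here both gMock values were below the 4 guide values. In wild-type Cas9 cells it was 0.11, 0.05 and 0.13 and then −0.08, 0.20 and 0.15, and in heterozygous cells 0.14, 0.10 and 0.21 and then 0.12, 0.10 and 0.04, with overlap in both. These differences of means have no test.

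**Figure D5:**
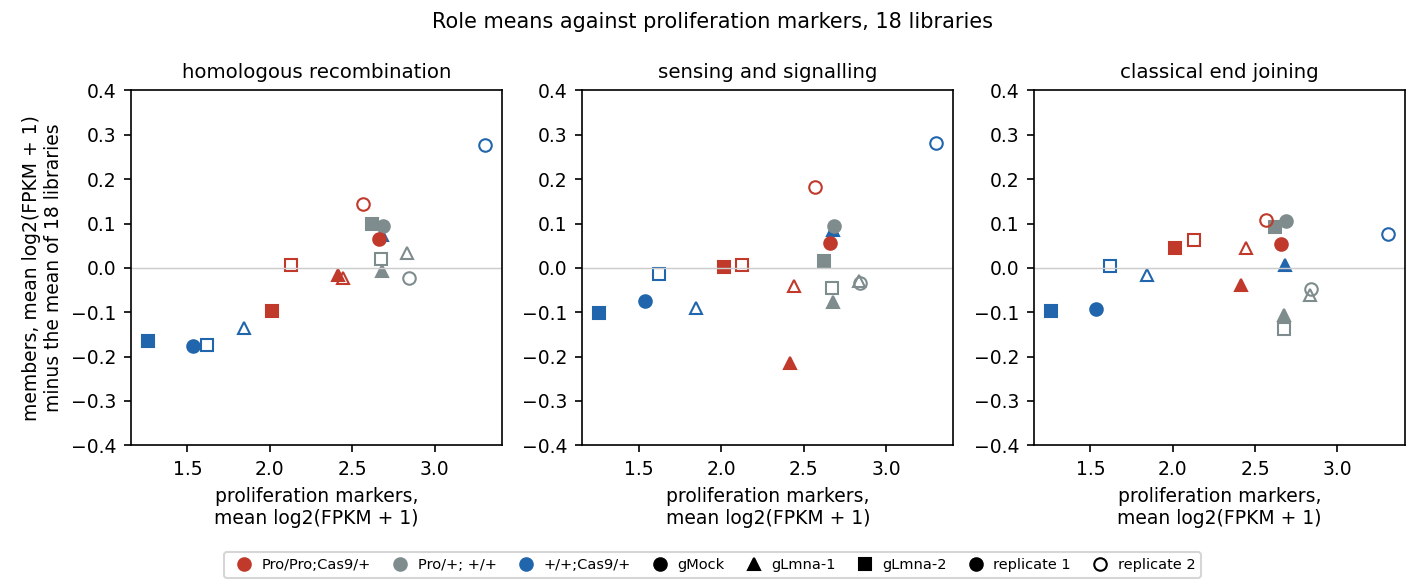
Mean log2(FPKM + 1) of the recombination, sensing and classical end-joining genes, each minus its mean over 18 libraries (y axis), against the mean log2(FPKM + 1) of the proliferation markers (x axis). Colours stand for genotypes, symbols for guides, filled and open for replicates 1 and 2. Before this centring the recombination means span 1.06 to 1.51 and the end-joining means 2.46 to 2.71, and the library farthest to the right is gMock of wild-type replicate 2.

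The genes outside all lists whose within-mouse pattern over the 18 libraries was most like that of Brca1 were Atad2 (r = 0.976), Ncapg2 (0.973), E2f8 (0.972), Kntc1 (0.97) and Mastl (0.966). Lig4 measured 4.83, 2.42 and 5.14 FPKM in replicate 1 and 3.06, 4.80 and 3.48 FPKM in replicate 2 of the homozygous Cas9 cells, 4.84, 2.02 and 4.37 FPKM and then 4.12, 3.78 and 2.13 FPKM in heterozygous cells, and 2.30, 3.75 and 2.41 FPKM and then 3.76, 4.15 and 4.19 FPKM in wild-type Cas9 cells. In the homozygous mice gLmna-1 gave the lowest value in one and the highest in the other, so the fitted difference of both guides from gMock was −0.01 with a standard error of 0.31, the largest of the members. Chosen after the values were seen, the genes most like Lig4 were Zfp30 (r = 0.978) and Klhl42 (0.977), and those most opposed were Hes1 (−0.94) and Irs2 (−0.94). The gene most like Wrn was Amotl1 (0.955), and the most opposed was Tmed9 (−0.97).

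E2F factors switch on many genes of DNA replication before S phase, and the promoters of the members were searched for the letters they bind. RefSeq promoters, 250 bases before to 50 after the start of a gene on GRCm38.p6 (mm10), were at hand for 26 members, all but Rad50, Nbn, Rad51d, Xrcc2, Prkdc, Rbbp8, Exo1 and Wrn. The entry for Nhej1 lies 78587 bases from the start of the transcript measured and held none of the letters searched. An E2F-type run (TTTCCCGC, TTTGGCGC, TTTCGCGC or TTTGCCGC, on either strand) was held by 6 of the 26 (23.1%): Brca2, Bard1 and Rad51c of recombination, Chek2 and Mdc1 of sensing, and Xrcc6 of end joining. It was held by 2.28% of 32544 promoters, which were not matched for base composition. The CHR letters of mitotic genes (TTTGAA or TTCGAA) were held by 4 of 26 (15.4%, beside 19.1% of all promoters), and CCAAT by 13 of 26 (50%, beside 37.4%). Letters in a window are a description and not a binding site. The holders did not share a pattern: r with the proliferation markers was 0.909 for Bard1, 0.869 for Rad51c, 0.848 for Brca2 and 0.82 for Mdc1, but 0.5 for Xrcc6 and 0.425 for Chek2, and Polq and Brca1, the highest in their roles, held none.

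The promoters of the 3 recombination genes with an E2F-type run and that of Xrcc6, the end-joining gene with one, are printed 5′ to 3′ with the run in capitals, and that of Polq with its CHR letters in capitals, since it had the highest r and no E2F-type run.
Brca2, chr5:150522371-150522670, plus strand: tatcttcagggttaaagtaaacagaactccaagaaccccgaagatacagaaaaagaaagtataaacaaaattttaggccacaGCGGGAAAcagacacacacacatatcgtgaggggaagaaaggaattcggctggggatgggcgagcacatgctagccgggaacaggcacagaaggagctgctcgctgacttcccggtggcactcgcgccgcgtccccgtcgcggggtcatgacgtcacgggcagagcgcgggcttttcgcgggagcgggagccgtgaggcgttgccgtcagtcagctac
Bard1, chr1:71102923-71103222, minus strand: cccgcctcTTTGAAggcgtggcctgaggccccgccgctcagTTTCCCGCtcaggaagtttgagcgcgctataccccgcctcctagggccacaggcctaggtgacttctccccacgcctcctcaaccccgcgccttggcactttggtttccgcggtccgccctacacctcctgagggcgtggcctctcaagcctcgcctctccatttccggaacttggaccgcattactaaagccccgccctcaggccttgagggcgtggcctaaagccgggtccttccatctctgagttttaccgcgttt
Rad51c, chr11:87404457-87404756, minus strand: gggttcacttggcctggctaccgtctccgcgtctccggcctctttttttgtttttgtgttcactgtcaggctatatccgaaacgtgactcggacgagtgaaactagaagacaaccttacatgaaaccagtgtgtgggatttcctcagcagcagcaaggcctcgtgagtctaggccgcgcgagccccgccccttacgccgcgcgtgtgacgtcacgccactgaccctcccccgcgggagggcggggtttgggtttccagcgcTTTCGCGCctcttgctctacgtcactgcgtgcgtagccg
Xrcc6, chr15:82016119-82016418, plus strand: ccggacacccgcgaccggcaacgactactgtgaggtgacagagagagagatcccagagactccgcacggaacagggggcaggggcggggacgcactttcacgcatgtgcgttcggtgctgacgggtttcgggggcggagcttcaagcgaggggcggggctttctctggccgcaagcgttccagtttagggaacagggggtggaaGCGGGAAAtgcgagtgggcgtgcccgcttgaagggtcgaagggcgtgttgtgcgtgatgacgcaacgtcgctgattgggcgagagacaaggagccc
Polq, chr16:37011536-37011835, plus strand: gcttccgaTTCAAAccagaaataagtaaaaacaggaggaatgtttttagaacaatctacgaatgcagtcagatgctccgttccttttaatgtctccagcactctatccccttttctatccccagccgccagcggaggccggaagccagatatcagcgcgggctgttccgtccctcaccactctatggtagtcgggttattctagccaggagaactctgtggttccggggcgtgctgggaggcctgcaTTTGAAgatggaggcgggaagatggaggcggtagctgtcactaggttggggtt
In Bard1 the CHR letters TTTGAA stand before the E2F-type run and are in capitals too. Counted from the start, with negative positions before it, the run begins at −209 in Bard1, −168 in Brca2, −46 in Xrcc6 and 12 in Rad51c. The distance thus differed between members, as did the strand: the run reads TTTCCCGC in Bard1 and GCGGGAAA in Brca2 and Xrcc6.

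Several repair genes start head to head with another gene. Within 1000 bases, 12 members had a divergent neighbour. Palb2 (0.418 FPKM) starts 95 bases from Dctn5 at 48.6 FPKM, and Brca1 (0.989 FPKM) 699 bases from Nbr1 at 37.7 FPKM, so the neighbours were 116 and 38.1 times as abundant. Their within-mouse r over 18 libraries was 0.121 and −0.06. Xrcc6 and Desi1, 229 bases apart, had 10.3 and 15.9 FPKM and an r of 0.803. Atm and Npat, a regulator of histone genes, start 376 bases apart and had 2.29 and 3.78 FPKM with r = 0.651, and Prkdc and the replication helicase gene Mcm4, 466 bases apart, had 1.24 and 9.36 FPKM with r = 0.606. For both guides in homozygous Cas9 cells, Npat stood at −0.20 (SE 0.11) and Mcm4 at −0.40 (SE 0.23), and neither passed. The r was 0.102 for Xrcc4 and Tmem167, only 59 bases apart, and −0.33 for Xrcc3 and Zfyve21.

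Repair genes beyond the members were followed as well. Of 43 further double-strand break genes, 40 were tested, and 3 passed in 1 of the 12 comparisons, that of gLmna-2 with gLmna-1 in homozygous Cas9 cells: the nuclease Mus81 (0.41, SE 0.10, limma adjusted p = 0.0303) and the polymerase Polm (0.52, SE 0.13, adjusted p = 0.0342) were higher, and Paxx, a partner of Ku, was lower (−0.54, SE 0.13, adjusted p = 0.0383). These 3 of 40 stand beside 9.95% of all tested genes called there, and no gene was called there with homozygous Cas9 libraries alone in the fit. For both guides against gMock in homozygous Cas9 cells 28 of the 40 were below 0, with a median of −0.07. Of 10 Fanconi anaemia genes, 9 were tested and none passed in any of the 12 comparisons (limma), with a median of −0.04 for both guides in homozygous Cas9 cells and −0.12 in wild-type Cas9 cells. The 16 S phase markers, replication genes such as Mcm2 and Pcna, were all below 0 for both guides in homozygous Cas9 cells (median −0.32) and in wild-type Cas9 cells (median −0.40), and none passed in any comparison.

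Targets of p53, which a persistent break activates through Atm and Chek2, were followed beside the members. Of 19, none passed for both guides against gMock in any genotype, and the median in homozygous Cas9 cells was −0.03. Between the guides in homozygous Cas9 cells, where 9.95% of all tested genes were called, 4 were higher and 1 was lower with gLmna-2: Mdm2, the ubiquitin ligase of p53, by 0.90 (SE 0.09, limma adjusted p = 0.00301), Pmaip1, a cell death gene, by 2.01 (SE 0.22, adjusted p = 0.00301), Ccng1 by 0.70 (SE 0.13) and Perp by 1.83 (SE 0.33), while Bax fell by 0.29 (SE 0.07). With homozygous Cas9 libraries alone in the fit these calls were lost, with 0 genes called in all, and without the replicate block 59 genes were called in all. Against gMock, Mdm2 was lower with gLmna-1 by the test (−0.65, SE 0.09, limma adjusted p = 0.0269), where 0.976% of all tested genes were called. That call was lost, with 0 genes called in all, both without the replicate block and with homozygous Cas9 libraries alone. Mdm2 measured 104, 62.4 and 127 FPKM in the order gMock, gLmna-1, gLmna-2 in replicate 1 and 94.6, 63.5 and 111 FPKM in replicate 2. As for Wrn, gLmna-1 gave the lowest and gLmna-2 the highest value in each mouse. In wild-type Cas9 cells Mdm2, Pmaip1, Ccng1 and Perp were also higher with gLmna-2 than with gLmna-1 in both mice, without a call. There Pmaip1 measured 9.73 and 19.8 FPKM in replicate 1 and 10.8 and 22.2 FPKM in replicate 2 in the order gLmna-1, gLmna-2. In heterozygous cells it measured 8.59 and 8.54 FPKM and then 5.61 and 6.56 FPKM.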

How the data were processed

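RNA was measured by sequencing in 18 libraries from 6 mice. FPKM values were computed by the authors and deposited per part of a transcript (404759 parts of 36795 transcripts), per the file headers with HOMER on mm10 exons, after FastQC 0.11.2 and STAR 2.4.0k per the submitters' processing notes. Whether counting used the strand is not given in the sources used here, and RNA was extracted without a DNase step, per the labels' protocols. The length of each part stands beside the FPKM values in the authors' table, and 6 library columns were not used. The tests were planned for a table with 1 row per gene. A transcript's FPKM was the length-weighted mean of its parts, the transcript of highest mean stood for a symbol, and symbols came from RefSeq (36474 transcripts) and GENCODE (194), with 127 transcripts left unnamed. The values are whole multiples of 1 read (100% within a tolerance of 0.05 steps), which gave 22424409 to 42622059 reads per library.

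Genes at 1 FPKM or more in at least 2 libraries (12599) were tested on log2(FPKM + 1), a scale that understates the change of low genes, with limma 3.58.1 (trended empirical Bayes, R 4.3.3), all 18 libraries, the mouse as a block (6 residual degrees of freedom) and Benjamini-Hochberg adjustment at 0.05. Genotypes under gMock used 6 libraries and 3 residual degrees of freedom. The treatments are paired by mouse, as the labels name the mouse. Deviations of same-mouse libraries correlated at −0.02 to 0.78 in Pro/Pro;Cas9/+, 0.47 to 0.73 in Pro/+; +/+ and 0.18 to 0.59 in +/+;Cas9/+. Limma voom on the recovered reads, other pseudocounts, filters, scalings, transcript choices and designs, and each library left out, were the alternatives. The procedure was tested on simulated data. The members and all lists were chosen with earlier results of these data known. Values are given for called members and, for both guides in homozygous Cas9 cells, for up to 3 members of smallest p per role. Python 3.11.15 was used with scipy 1.17.1, numpy 2.4.6, pandas 2.3.3 and matplotlib 3.10.9.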

Additional observations from a re-analysis of the deposited data

How the results depend on the processing

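Across the 12 comparisons, 190 recomputed counts of called members were the same and 6 moved. For gLmna-1 against gMock in homozygous Cas9 cells, limma voom on the recovered reads called 2 members (193 genes in all, against 123). For gLmna-2 against gLmna-1 in these cells the 1 call became 0 with a filter of 5 FPKM, which left out Wrn, without the replicate block, with the compared genotypes alone, and ranged from 0 to 1 when single libraries were left out. The mouse as the pairing mattered for all genes as well: without the replicate block that comparison called 59 genes in place of 1253, and gLmna-1 against gMock 0 in place of 123. With the compared genotypes alone both gave 0. Leaving out single libraries moved them from 140 to 2629 and from 0 to 1773, both guides against gMock (10 calls) from 1 to 152 and, in wild-type Cas9 cells (107), from 0 to 84, gLmna-2 against gMock (45) from 0 to 181, and the genotypes under gMock (50) from 0 to 2. Without a filter on low values, calls under gMock between genotypes numbered 2 in place of 50, and the guide effect of wild-type Cas9 against heterozygous cells gave 6 in place of 37, or 1 with voom. Xrcc5 for both guides in homozygous Cas9 cells turned from −0.03 to 0.0032 without gMock replicate 1 (range −0.0693 to 0.0032 over the libraries left out). The cause of these changes was not tested. Subsets behind the proliferation values were chosen after seeing the data. With 2 mice per genotype and standard errors near 0.12, small changes of single genes were not detectable. Several members under 1 FPKM rest on few reads, such as Polq with 17 to 176 per library.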
